A study of Pleurotus ostreatus with 4 samples.

Results

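The mature fruit body of Pleurotus ostreatus, the oyster mushroom, a basidiomycete that decays wood as a white-rot fungus, was set against the vegetative mycelium by RNA sequencing, with 1 library for each stage. These are 2 of the 4 libraries of a developmental series whose other stages are primordium and young fruit body. All came from strain P739, labelled wild type, and the labels name no treatment. The sources used here do not state culture conditions, the age of the material, the part of the mushroom taken or any pooling of mushrooms. A sequence entered the comparison when it had at least 5 FPKM (fragments scaled by sequence length and library total) in mature fruit body or in mycelium. This held for 8371 of the 51131 sequences in the deposited table. A sequence was called higher or lower when log2(FPKM + 1) differed by at least 1, which is 2-fold on that scale. With no replicate library, no difference could be set against the spread between samples, and no p-value is given.

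The mycelium is the feeding stage of the fungus, a network of hyphae that grows through wood or straw and secretes enzymes that break down lignin and cellulose. On fruiting, hyphae join into a compact primordium, which grows into a mushroom with stipe, cap and gills. In a mature basidiomycete mushroom the gills carry basidia, the cells in which nuclei fuse, meiosis takes place and spores are formed. The comparison sets the stage labelled mature fruit body against the vegetative state, and whether spore-bearing tissue was in the library is not known.

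The authors' identifiers are those of contigs within clusters (39842 contigs in 6528 clusters) and of 11289 single unigenes, and the table pairs none with a gene name. Of these identifiers, 0 matched a table of 11849 RefSeq genes of strain PC9. The labelled tissues could therefore not be checked against marker genes, no function is stated for any sequence, and few identifiers are printed. Whole fragment counts and lengths were recovered from the steps of the FPKM values. The FPKM denominator was 15691317 fragments for mature fruit body and 15541785 for mycelium, so depth was nearly equal. Intervals given below cover counting error only, and the 95% Wilson interval of any share of fragments is within 0.0254 percentage points of the value.

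The summed FPKM of the mature fruit body was spread over more sequences than that of the mycelium, and 1 mycelial sequence carried most of the difference. In mature fruit body 432 sequences made up 50% of the summed FPKM, against 280 in mycelium. The 100 most abundant sequences held 27.0% of the summed FPKM in mature fruit body, compared with 35.4% in mycelium, and the 500 most abundant held 52.7% in mature fruit body, compared with 58.5% in mycelium. A single sequence accounted for 9.75% of the summed FPKM in mycelium, though for 3.08% of the fragments, while the most abundant one in mature fruit body held 1.69% of the summed FPKM and 0.391% of the fragments. Without that mycelial sequence, an alternative chosen after the values were seen, 50% was reached at 432 sequences in mature fruit body and 392 in mycelium. The 100 most abundant then held 27.0% in mature fruit body and 28.5% in mycelium, and the 10 most abundant 8.16% in mature fruit body and 8.80% in mycelium, against 8.16% and 17.2% with it. Counted in fragments, likewise chosen after the values were seen and with sequences ordered by fragments, 50% was reached at 505 sequences in mature fruit body and 451 in mycelium, and the first 100 held 23.4% and 26.6% in the same order.

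**Figure D1:**
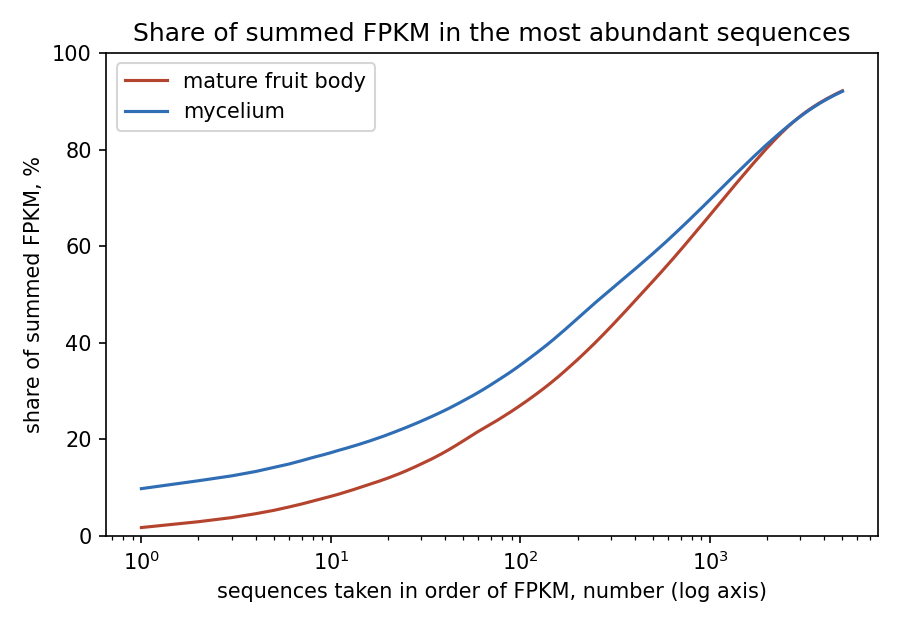
Share of the summed FPKM (vertical axis, %) held by the most abundant sequences, taken in order of FPKM within each library (horizontal axis, number of sequences on a log axis), for mature fruit body and mycelium, 1 library each. The mature fruit body curve starts at 1.69% and the mycelium curve at 9.75%, and 50% is reached at 432 and 280 sequences.

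At a given level the numbers of sequences were close. At least 5 FPKM was reached by 6612 sequences in mature fruit body and 7113 in mycelium, at least 100 FPKM by 1102 and 1022 in the same order, and at least 1000 FPKM by 58 in each library. The median level of the sequences at 5 FPKM or more was 19.4 FPKM in mature fruit body and 18.4 FPKM in mycelium. The lists of the 100 most abundant sequences overlapped in part. Of these sequences, 46 of those in mature fruit body and 44 of those in mycelium were not called different. Of the 100 most abundant in each library 39 were shared, 39.0% of each list, and 31 of these 39 were not called different. Of the 61 found only in the list of mature fruit body 46 were called higher there, and of the 61 found only in that of mycelium 48 were called lower in mature fruit body. Over all compared sequences 18.1% were called higher and 24.3% lower. Presence in only 1 list is a choice by level in both libraries, so nothing is read from these counts.

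Against mycelium, 1519 sequences were higher in mature fruit body and 2032 were lower, which is 18.1% and 24.3% of the 8371 compared (42.4% in all). Of the fragments, the higher group made up 31.4% in mature fruit body and 7.16% in mycelium. The lower group made up 7.03% in mature fruit body and 34.5% in mycelium. The 4820 sequences that were not called held 56.5% of the fragments in mature fruit body and 53.1% in mycelium, and 3106 of them lay within 1.5-fold of equality. The excess of lower over higher calls depended on how the libraries were scaled. Scaled to the upper quartile of FPKM, 1814 sequences were higher and 1718 lower, and scaled to equal sums 1819 were higher and 1749 lower. With median-of-ratios scaling the excess remained, at 1553 higher and 1951 lower. Scaling to equal sums depends on the summed FPKM, which was 536915 in mature fruit body and 595666 in mycelium. Of the mycelial sum, 58060 FPKM belonged to its most abundant sequence. The upper-quartile and equal-sum scalings shifted the median log2 difference of the compared sequences by 0.14 in both cases, from 0.05 with FPKM as deposited.

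**Figure D2:**
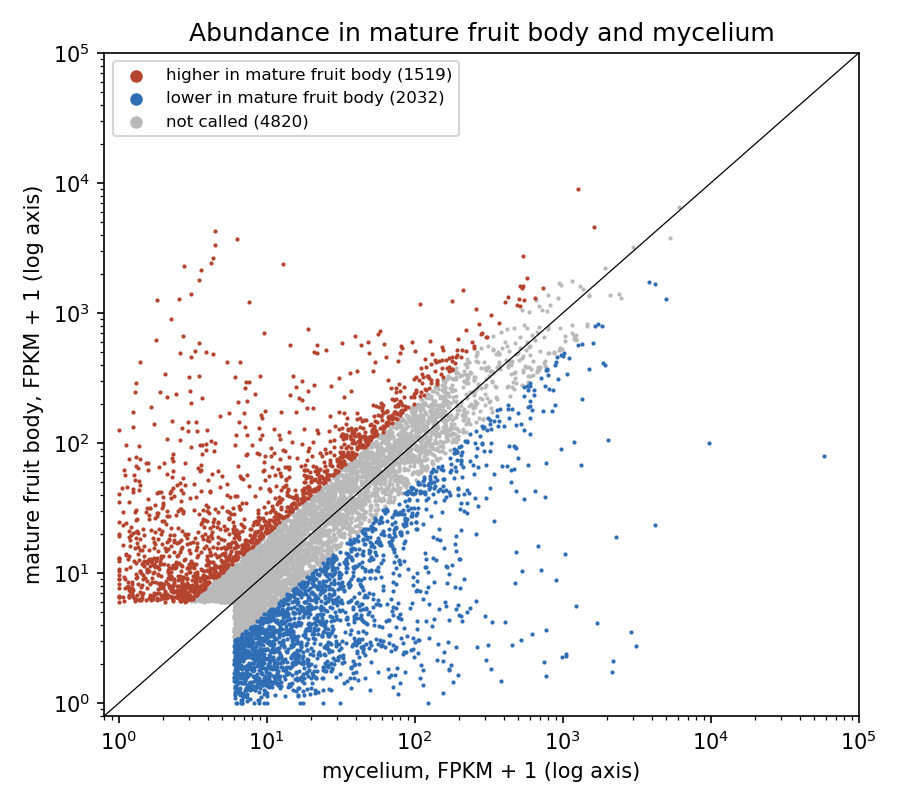
Each point is 1 of the 8371 compared sequences, with FPKM + 1 in mature fruit body (vertical log axis) against FPKM + 1 in mycelium (horizontal log axis); the line marks equality. The 1519 higher sequences lie above the line and the 2032 lower ones below it, and the point farthest to the right is the most abundant mycelial sequence.

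The sequences of the higher group had a median of 27.0 FPKM in mature fruit body, with quartiles of 10.7 and 95.6 FPKM, against a median of 4.78 FPKM in mycelium. Those of the lower group had a median of 2.78 FPKM in mature fruit body against 18.4 FPKM in mycelium, where the quartiles were 8.78 and 53.0 FPKM. The median fold on the log2(FPKM + 1) scale was 3.10 in the higher group and 3.85 in the lower group. This scale understates differences at low FPKM. A difference of 4-fold or more was seen in 579 higher and 970 lower sequences, 6.92% and 11.6% of those compared. It reached 16-fold in 167 higher and 171 lower sequences (1.99% and 2.04%), and 64-fold in 44 and 43. Counting error left 1258 of the higher and 1811 of the lower sequences with a 95% interval of the fold entirely past 2. These are 15.0% and 21.6% of those compared. The fold meant here is the plain ratio of FPKM, without the added 1 FPKM. At low FPKM it is larger than the fold on the scale of the calls.

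Calls were present at every level of abundance. The called share was 36.9% of the 2604 sequences with 5 to 10 FPKM in the higher of the 2 libraries, 43.8% of the 4331 with 10 to 100 FPKM, 46.8% of the 1337 with 100 to 1000 FPKM and 65.7% of the 99 at 1000 FPKM or more. Among these 99 abundant sequences, 32 were higher and 33 lower in mature fruit body. In the class of 5 to 10 FPKM, 343 were higher and 618 lower. Of the 58 sequences at 1000 FPKM or more in mature fruit body, 32 were called higher and 3 lower than in mycelium. Their median was 1460 FPKM in mature fruit body and 584 FPKM in mycelium. Of the 58 at that level in mycelium, 2 were higher and 33 lower in mature fruit body, with medians of 625 FPKM in mature fruit body and 1501 FPKM in mycelium. A sequence picked for a high level in one library is more often higher there, so these last counts describe the sets only.

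Called sequences were on the whole shorter than the others. The median recovered length was 1502 nt in the higher group, 1412.5 nt in the lower group and 1761 nt among the sequences not called. In the 4 length quartiles of the compared sequences, the called share was 47.3%, 46.8%, 42.7% and 32.9% from the shortest to the longest. Calls toward mature fruit body made up 20.5% of the shortest quartile and 16.1% of the longest, and calls toward mycelium 26.8% and 16.9%. At the same FPKM a shorter sequence has fewer fragments and a larger counting error. The bearing of this on the shares was not tested. By kind of identifier, 43.9% of the 4814 contigs and 40.5% of the 3557 unigenes were called. The higher contigs came from 622 clusters and the lower ones from 839. Of 495 clusters with at least 2 called contigs, all called contigs were higher in 205, all were lower in 264 and both directions occurred in 26. The sources used here do not state how a fragment that matched several contigs of a cluster was assigned, so such contigs are not independent.

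Some sequences were found in only 1 of the 2 libraries. In the higher group 21 had 0 fragments in mycelium, with 5.04 to 124 FPKM in mature fruit body from 22 to 853 fragments. At the floor of 3 fragments per library, which a count of 0 allows, they were at least 7.26-fold to at least 282-fold higher in mature fruit body. In the lower group 14 had 0 fragments in mature fruit body and 5.17 to 122 FPKM in mycelium, from 18 to 1191 fragments. They were at least 6.06-fold to at least 401-fold lower in mature fruit body. Both sets were short, with median recovered lengths of 438 and 287.5 nt. A library at 0 does not constrain the recovered length, so these lengths are more open to being understated. At the other end, the calls nearest the threshold were close to the sequences just missing it. In the 0.1 log2 units inside the threshold lay 184 higher and 126 lower sequences, and in the 0.1 units outside it 194 and 147. The medians were 29.0 FPKM in mature fruit body and 13.3 FPKM in mycelium for the higher ones just inside, and 25.8 FPKM in mature fruit body and 12.6 FPKM in mycelium for those just outside.

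The largest difference of log2(FPKM + 1) toward mature fruit body was that of CL3207.Contig2 (595 nt). It had 3.46 FPKM in mycelium, 4598 in primordium, 3858 in the young and 4263 in the mature fruit body. It was the 4th most abundant sequence of mature fruit body, where it was 1232-fold higher than in mycelium (95% counting interval 872 to 1801, from 39798 and 32 fragments). Its level was close to this in all fruiting stages, and that in mature fruit body was 0.927 times that in primordium. The other contigs of its cluster, of 750 and 541 nt, were also called higher, at 21.8 and 172 FPKM in mature fruit body and 4.12 and 0.238 FPKM in mycelium.

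CL1667.Contig1 (585 nt) followed on that scale, with a different course. It had 1.76 FPKM in mycelium, 111 in primordium, 960 in the young and 2297 in the mature fruit body, the highest level being that of the mature stage. The ratio of mature fruit body to mycelium was 1305 (804 to 2284, from 21084 and 16 fragments), and the ratio to primordium was 20.8 (19.5 to 22.2). The longer contigs of the cluster, of 3186 and 3831 nt, had 702 and 114 FPKM in mature fruit body against 8.64 and 11.1 FPKM in mycelium.

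Toward mycelium the largest difference was that of CL3978.Contig1 (346 nt). It had 2156 FPKM in mycelium, 3.26 in primordium, 2.06 in the young and 0.737 in the mature fruit body. Its mature fruit body level was 2926-fold lower (1142 to 10740.3), with 4 fragments there and 11592 in mycelium. The 1464 and 1811 nt contigs of its cluster stood at 0.479 and 2.04 FPKM in mature fruit body against 380 and 522 FPKM in mycelium. Unigene427 (702 nt) was next, at 1.72 FPKM in mature fruit body and 3102 FPKM in mycelium. In mature fruit body it was 1798-fold lower (1151 to 2987, from 19 and 33839 fragments), with 0.473 FPKM in primordium and 1.48 in the young fruit body.

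Among the 14 sequences with a log2 difference of at least 8 toward mature fruit body, levels in the intermediate stages covered a wide range. In mycelium they had 0.401 to 5.28 FPKM, with a median of 2.28. In primordium they had 6.17 to 4598 FPKM (median 273), in young fruit body 30.2 to 3983 (median 947) and in mature fruit body 422 to 4263 (median 1976). The lowest of them in mature fruit body was above the highest in mycelium. The 12 sequences that were lower by as much had 380 to 58060 FPKM in mycelium, with a median of 1375. The highest of these values is that of the most abundant mycelial sequence. Their medians were 1.85 FPKM in primordium, 1.82 in the young and 1.27 in the mature fruit body, and none exceeded 83.5 FPKM in any fruiting library. These sequences were picked for low levels in one library and high levels in the other, so the separation of those 2 libraries is given by the choice. The levels in primordium and young fruit body were not used in it.

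**Figure D3:**
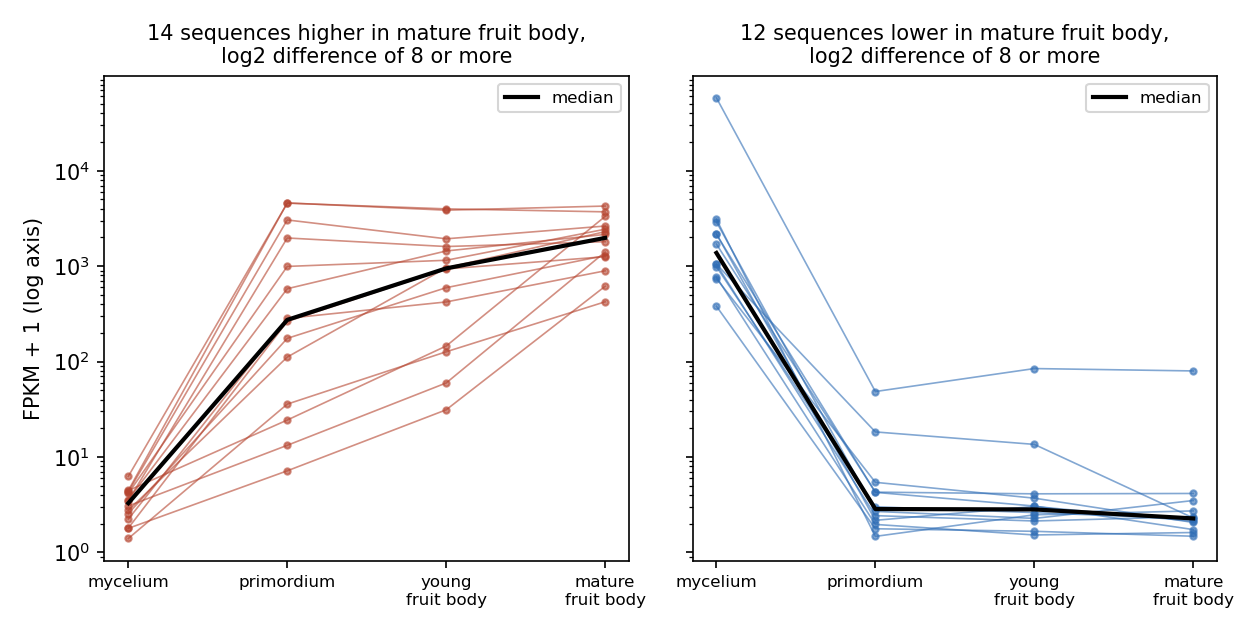
FPKM + 1 (vertical log axis) in the 4 libraries in order of development (horizontal axis) for the 14 sequences higher (left) and the 12 lower (right) in mature fruit body by a log2 difference of 8 or more; each thin line is a sequence and the thick line the median. In primordium the higher sequences range between 6.17 and 4598 FPKM, and the lower ones between 0.473 and 47.6 FPKM.

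The 167 sequences at least 16-fold higher had medians of 1.35 FPKM in mycelium, 39.8 in primordium, 61.2 in the young and 96.4 in the mature fruit body. Their share of the fragments came to 0.137% in mycelium, 5.90% in primordium, 6.37% in the young and 8.56% in the mature fruit body. The 171 sequences at least 16-fold lower had medians of 96.7 FPKM in mycelium, 1.89 in primordium, 1.75 in the young and 1.72 in the mature fruit body. In mature fruit body they took 0.138% of the fragments, against 11.0% in mycelium. The most abundant mycelial sequence was among them, with 3.08% of the mycelial fragments.

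Part of the differences between mature fruit body and mycelium were absent from primordium against mycelium. A difference was taken as absent when the sequence was not called in the same direction by the same rule. This was the case for 598 of the 1519 higher sequences (39.4%, or 7.14% of those compared) and for 330 of the 2032 lower sequences (16.2%, or 3.94% of those compared). Both comparisons use the same mycelium library, so they are not independent. In primordium against mycelium 16.1% of 8134 sequences were called higher and 24.6% lower.

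The 5 FPKM minimum bears on these shares in one direction only. Of the 598 higher sequences, 331 had under 5 FPKM in both primordium and mycelium and could not be called there whatever their ratio. No lower sequence can be in that position, because each had at least 5 FPKM in mycelium. Among sequences that could be called, 267 of 1188 higher ones (22.5%) and 330 of 2032 lower ones (16.2%) were absent. A higher sequence under 5 FPKM in mycelium could be called only with 5 FPKM or more in primordium, which itself favours a call. That filter lowers the 22.5% and does not act on the lower sequences, so these shares are not like for like. By the size of the log2 difference alone, with no minimum in primordium against mycelium, 532 of the 1519 higher sequences (35.0%) were absent.

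The absent share was also counted by size of the difference. Of the 171 sequences at least 16-fold lower in mature fruit body 0 were absent from primordium, and 28 of the 799 that were 4- to 16-fold lower were absent (3.50%). Of the 412 that were 4- to 16-fold higher, 188 were absent (45.6%), of which 162 had under 5 FPKM in both primordium and mycelium, and among the 250 that could be called 26 were absent (10.4%). Of the 167 at least 16-fold higher, 34 were absent, of which 31 had under 5 FPKM in both primordium and mycelium. By size alone 25 of the 167 were absent (15.0%), and among the 136 that could be called 3 were absent (2.21%). The shares among those that could be called are lowered by the 5 FPKM minimum, as described above. Most sequences at least 4-fold higher had under 5 FPKM in mycelium. These 34 sequences had medians of 0.536 FPKM in mycelium, 1.52 in primordium, 5.89 in the young and 44.4 in the mature fruit body. A 2- to 4-fold difference needs only a small shortfall in primordium to be absent, and in that class 376 of 940 higher sequences (40.0%) and 302 of 1062 lower sequences (28.4%) were absent.

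**Figure D4:**
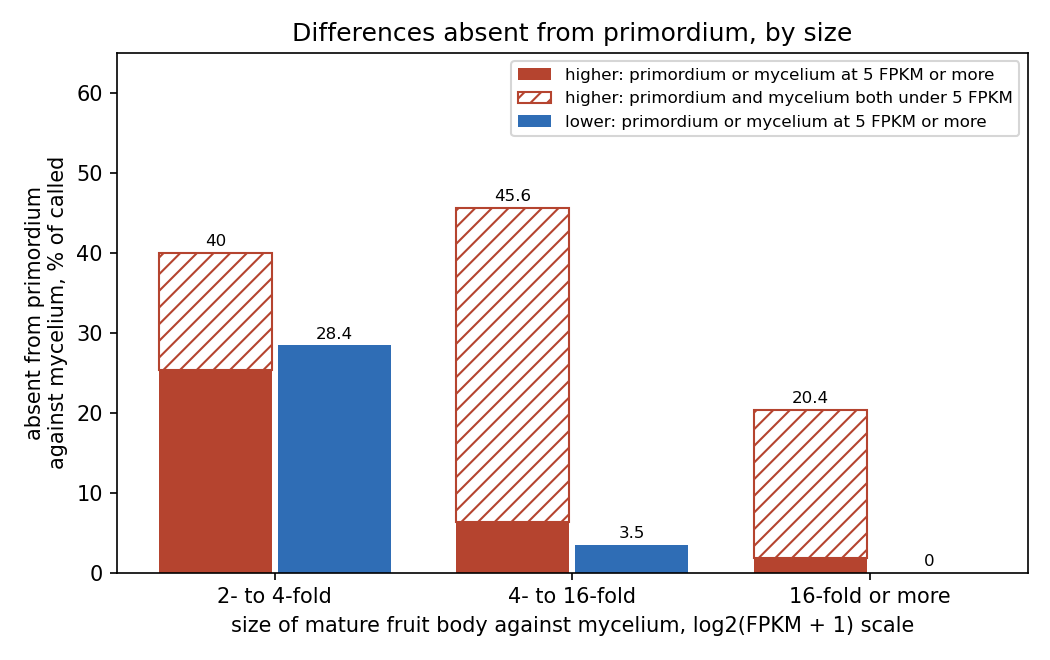
Share of the called sequences (vertical axis, %) whose difference between mature fruit body and mycelium was absent from primordium against mycelium, by size of the difference (horizontal axis) and direction; solid parts are sequences that could be called there and the hatched part those under 5 FPKM in both primordium and mycelium. For lower sequences the share is 28.4%, 3.50% and 0% from small to large, and for higher sequences 40.0%, 45.6% and 20.4%, most of it hatched above 4-fold.

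The absent differences differed in how far the primordium had moved. Of the 598 higher sequences, 284 were past 1.5-fold in the same direction in primordium, 279 were within 1.5-fold of mycelium and 35 were past 1.5-fold the other way. Of the 330 lower sequences, 240 were past 1.5-fold in the same direction, 82 were within 1.5-fold and 8 were past it the other way. In primordium 58 of the higher and 75 of the lower sequences missed the threshold by at most 0.1 log2 units. A further 66 higher sequences were at or past 2-fold in primordium and were absent only because they had under 5 FPKM in both primordium and mycelium. For the 598 higher sequences the median level was 2.59 FPKM in mycelium, 4.09 in primordium, 6.60 in the young and 13.2 in the mature fruit body. For the 330 lower sequences it was 22.1 FPKM in mycelium, 13.7 in primordium, 11.1 in the young and 8.26 in the mature fruit body. The rule used the levels in mature fruit body, mycelium and primordium, so only those in young fruit body were free of it. The higher group held 5.34% of the fragments in mature fruit body and 1.66% in mycelium, and the lower group 2.43% in mature fruit body and 6.02% in mycelium.

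**Figure D5:**
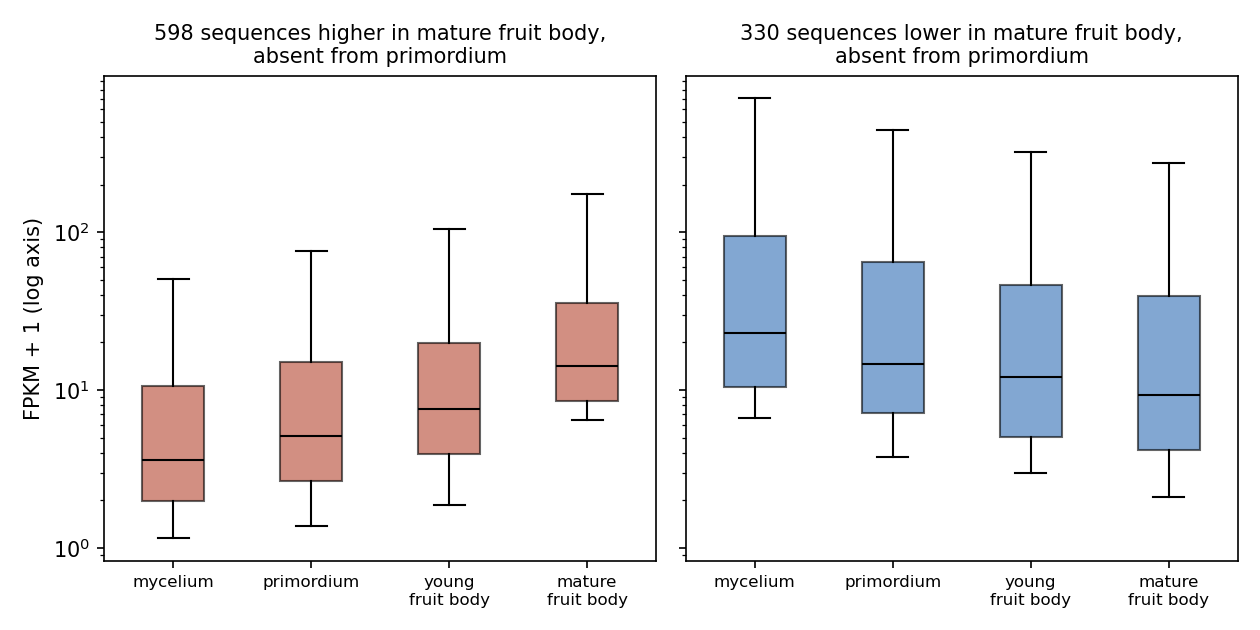
FPKM + 1 (vertical log axis) in the 4 libraries in order of development (horizontal axis) for the 598 higher (left) and 330 lower (right) sequences whose difference was absent from primordium; boxes span the quartiles with the median as a line, and whiskers reach the 5th and 95th percentiles. The medians of FPKM are 6.60 and 11.1 in young fruit body, between those of primordium (4.09 and 13.7) and mature fruit body (13.2 and 8.26).

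Compared with primordium directly, 339 of the 598 were also called higher in mature fruit body and 62 of the 330 were also called lower. Over all 7119 sequences with at least 5 FPKM in mature fruit body or primordium, 8.39% were higher and 4.09% lower. The members were chosen by their levels in both mature fruit body and primordium, and nothing is read from these counts. The 339 had medians of 1.33 FPKM in mycelium, 1.87 in primordium, 3.65 in the young and 11.9 in the mature fruit body. The 62 had medians of 27.2 FPKM in mycelium, 28.0 in primordium, 18.7 in the young and 7.07 in the mature fruit body.

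Set against young fruit body, 234 of the 598 sequences that were higher in mature fruit body and absent from primordium were also called higher in mature fruit body. Their medians were 1.18 FPKM in mycelium, 1.59 in primordium, 2.42 in the young and 12.8 in the mature fruit body. The other 364 had medians of 4.47 FPKM in mycelium, 7.49 in primordium, 11.1 in the young and 13.7 in the mature fruit body. Of the 330 lower sequences 22 were also called lower than in young fruit body, with medians of 38.5 FPKM in mycelium, 80.4 in primordium, 52.7 in the young and 12.4 in the mature fruit body. Over all 7055 sequences with at least 5 FPKM in mature or young fruit body, 5.22% were called higher and 2.04% lower in mature fruit body. The members were chosen for their level in mature fruit body and then split by their level in young fruit body. These counts and medians, those of young fruit body included, are therefore a description.

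Among higher sequences within 1.5-fold of mycelium in primordium on the log2(FPKM + 1) scale, Unigene719 (721 nt) had the largest difference. It had 0.0892 FPKM in mycelium, 0.461 in primordium, 2.97 in the young and 61.1 in the mature fruit body. The ratio of mature fruit body to mycelium was 685, with a counting interval of 122 to 27072 because it rests on 691 fragments in mature fruit body and 1 in mycelium. Its primordium value rests on 5 fragments, and the counting interval of its ratio to mycelium, 0.578 to 244, shows that closeness to mycelium on the log2(FPKM + 1) scale is not a measured equality here. Against primordium it was 133-fold higher (56.5 to 409).

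CL1680.Contig2 (1547 nt) was better covered. It had 1.91 FPKM in mycelium, 3.01 in primordium, 8.06 in the young and 123 in the mature fruit body, from 46, 70, 192 and 2985 fragments. It was 64.3-fold higher in mature fruit body than in mycelium (48.1 to 88.0) and 15.3-fold higher than in young fruit body (13.2 to 17.7). By FPKM alone its ratio of primordium to mycelium was 1.57 (1.07 to 2.33), past 1.5-fold without the added 1 FPKM. The other contig of its cluster (1497 nt) had 124 FPKM in mature fruit body, 2.92 FPKM in mycelium and 3.73 FPKM in primordium.

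Of the lower sequences chosen in the same way, Unigene8222 (1210 nt) had the largest difference. It had 156 FPKM in mycelium, 169 in primordium, 44.5 in the young and 14.7 in the mature fruit body. The level in mature fruit body was 10.6-fold lower than in mycelium (9.36 to 12.0, from 279 and 2925 fragments) and 11.5-fold lower than in primordium (10.2 to 13.1). CL1601.Contig1 (439 nt) had 11.1 FPKM in mycelium, 7.11 in primordium, 1.18 in the young and 0.581 in the mature fruit body. It was 19.2-fold lower in mature fruit body than in mycelium, with a wide interval of 7.19 to 72.2 from 4 and 76 fragments. By FPKM alone it was already 1.57-fold lower in primordium than in mycelium (1.07 to 2.30), past 1.5-fold without the added 1 FPKM. The other contig of its cluster (785 nt) was lower too, at 0.568 FPKM in mature fruit body against 20.6 FPKM in mycelium. It had 9.06 FPKM in primordium and was by the rule already lower there, so its difference was not absent from primordium.

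A few sequences lay on opposite sides of mycelium in mature fruit body and primordium. Higher in mature fruit body but called lower in primordium were 13 sequences, with medians of 23.4 FPKM in mycelium, 3.56 in primordium, 7.90 in the young and 54.4 in the mature fruit body. Lower in mature fruit body but called higher in primordium were 7 sequences. Their medians were 26.4 FPKM in mycelium, 489 in primordium (range 30.9 to 2706), 153 in the young and 10.1 in the mature fruit body. The 13 and the 7 are 0.155% and 0.0836% of the compared sequences. Both sets were chosen by their levels in mature fruit body, mycelium and primordium, so nothing is read from those levels. The levels in young fruit body were not used in the choice.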

How the data were processed

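RNA of the vegetative mycelium, the primordium and the young and mature fruit body was extracted with Trizol and sequenced on an Illumina HiSeq2000, per the labels' protocols, with 1 library a stage. The authors deposited FPKM values with 4 decimals, per the file headers. The sources used here do not give the aligner, the assembly, the counting or any filter. Columns were assigned to stages by the short names in the labels. Denominators, lengths of at least 200 nt and whole fragment counts were recovered from the FPKM steps. All 50567 sequences above 0 gave whole counts within 5.2e-05 FPKM. Among the 17726 above 0.5 FPKM in all libraries 100% did, against 0.316% with shifted denominators. Counts and lengths that share a common factor are understated by it. Recovered fragments were 98.7% to 98.8% of the denominators in both libraries compared. The fold of a named sequence is its ratio of FPKM, with an exact binomial counting interval, which covers counting error only. Recovery and calls were tested on simulated data.

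The pseudocount was 1 FPKM. The sequences named are the 2 with the largest log2(FPKM + 1) difference in each direction. Also named are the 2 largest in each direction among those absent from primordium and within 1.5-fold of mycelium there on that scale. The comparison, rules and alternatives were chosen with earlier results of these data known. Python 3.11.15, numpy 2.4.6, pandas 2.3.3, scipy 1.17.1 and matplotlib 3.10.9 were used.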

Additional observations from a re-analysis of the deposited data

How the results depend on the processing

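No paired analysis was possible because there is a single library a stage. Counts are given as higher, lower, higher and absent from primordium, and lower and absent from primordium, where the reported values are 1519, 2032, 598 and 330. With at least 20 FPKM they were 868, 963, 286 and 172, with no minimum 2457, 3673, 1152 and 860, and with a log2 difference of at least 2 in both comparisons 579, 970, 308 and 192. These settings admit fewer or more sequences. With the contigs of a cluster joined and weighted by length, 1008, 1315, 371 and 232 clusters or unigenes were called. Asking that primordium lie within 1.5-fold of mycelium left 279 higher and 82 lower, and asking for a call against primordium as well left 339 and 62. Pseudocounts of 0.1 and 5, the 3 scalings, plain sums over clusters (chosen after the data were seen) and the counting interval left all 4 counts within 1.5 times the reported values. Lower calls outnumbered higher ones except after scaling to the upper quartile (51.4% of calls higher) or to equal sums (51.0%), against 42.8% as deposited. The cause was not tested. Of the recovered fragments, the 10 sequences with the most fragments held 5.74% in mature fruit body and 10.5% in mycelium, against 8.16% and 17.2% of the summed FPKM, and without its most abundant sequence mycelium gave 8.80%. The 100 with the most fragments held 23.4% in mature fruit body and 26.6% in mycelium, against 27.0% and 35.4% of the summed FPKM, or 28.5% in mycelium without that sequence. For 50% of the fragments 451 mycelial sequences were needed, against 280 for 50% of the summed FPKM. No direction changed among the 8 named sequences in 40 recalculations, which is no test, since they were chosen for large differences. Single libraries leave differences between individual samples unmeasured.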
